A study of Mus musculus with 6 samples.

Results

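The genes described here encode enzymes that use oxygen to demethylate chromatin. There are 10 of them, the histone lysine demethylase genes Kdm3a, Kdm4a, Kdm4b, Kdm4c, Kdm5b, Kdm6a and Kdm6b, and the DNA demethylase genes Tet1, Tet2 and Tet3. They were chosen by name as listed 2-oxoglutarate-dependent KDM and TET genes, and all 10 were among the 17068 genes of the filtered count table. The lateral cortex of 6 female c57/bl6 embryos at E12.5 was sequenced. Controls 1, 2 and 4 were Cre-negative Foxp1 fl/+ embryos, control 3 was a Cre-negative Foxp1 fl/fl embryo, and the 2 embryos of the other group were Foxp1 fl/fl;Emx1Cre and are called Foxp1cKO. Every embryo thus carried at least 1 floxed Foxp1 allele, and Cre under the Emx1 promoter acts in progenitors of the dorsal telencephalon and their progeny, so vessels, blood cells and ventrally born neurons in the same dissection are not its targets.

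Enzymes of this kind bind iron, split molecular oxygen and turn 2-oxoglutarate into succinate as they oxidize a methyl group. The jumonji-type KDM proteins remove methyl groups from histone lysines in this way, and the TET proteins oxidize 5-methylcytosine to 5-hydroxymethylcytosine and further. Because oxygen is a substrate, their activity can fall when oxygen is scarce, and Kdm3a, Kdm4b and Kdm4c are known from other cells as genes that HIF-1 switches on in hypoxia. In the embryonic cortex, Kdm6b and the TET enzymes are known for roles in neuronal differentiation.

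The libraries held 50076008 to 78346979 counts in all, of which each of the 10 genes had 3083 to 31308 per library. Foxp1 itself was at 59.7, 60.8, 71.2 and 79.1 CPM (counts scaled to a common library size, here by edgeR's TMM method) in controls 1 to 4, and at 83.2 and 76.8 CPM in the libraries labelled Foxp1cKO 1 and 2. It was therefore not lower in the libraries labelled Foxp1cKO, which are named by their labels throughout, and every direction below rests on those labels. Reads from the floxed exons are not told apart in such a gene count. Emx1, a defining gene of the labelled tissue, the dorsal telencephalon, was present at 68.8 to 135 CPM in the controls and at 98.4 and 116 CPM in the libraries labelled Foxp1cKO. Lhx2, a patterning gene of the same region, was at 257 to 614 CPM in the controls and at 459 and 392 CPM in the others, and Emx2 was present in every library as well.

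None of the 10 genes passed an adjusted p-value of 0.05 between the groups in edgeR (0 of 10, against 0.152% of all genes tested), but most were at their highest in the libraries labelled Foxp1cKO. In 7 of the 10 (Kdm3a, Kdm4c, Kdm5b, Kdm6a, Kdm6b, Tet1 and Tet3) both of these libraries lay above all 4 controls, which was so for 11.5% of all genes. In none of the 10 did both lie below all controls, against 13.1% of all genes. Of the 10, 4 had an unadjusted p-value under 0.05 in edgeR (Kdm3a, Kdm4c, Kdm6b and Tet3), against 13.0% of all genes, all with the higher values in the libraries labelled Foxp1cKO. This count moved with single libraries, as did the share of all genes: it was 2 without control 1 (8.52% of all genes), 2 without the library labelled Foxp1cKO 1 (5.51%) and 6 without control 4 (19.1%). DESeq2's Wald test called 1 of the 10, Kdm3a, where it called 2.78% of all genes. The median log2 fold change of the 10 was 0.19, with a range of -0.16 to 0.63, and that of all genes was -0.0044. An exact permutation test of 4 libraries against 2 cannot give a p-value under 0.0667, so it could not pass 0.05 and none was used.

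**Figure D1:**
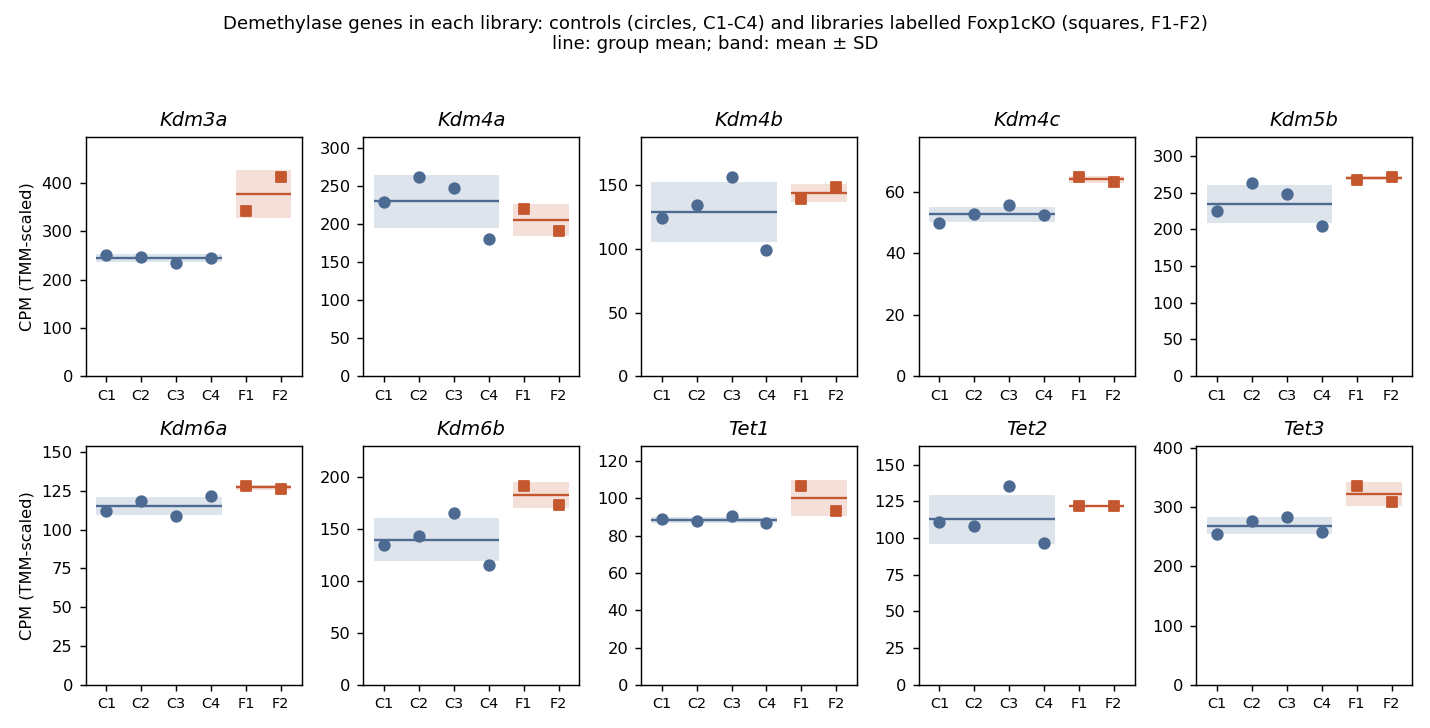
CPM of each gene (y axis, from 0) in controls 1 to 4 (C1 to C4, circles) and in the libraries labelled Foxp1cKO 1 and 2 (F1 and F2, squares), with the group mean as a line and the mean ± SD as a band. Kdm3a shows the widest gap, from a highest control of 252 CPM to 343 and 413 CPM, whereas the groups overlap for Kdm4a, Kdm4b and Tet2.

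**Figure D2:**
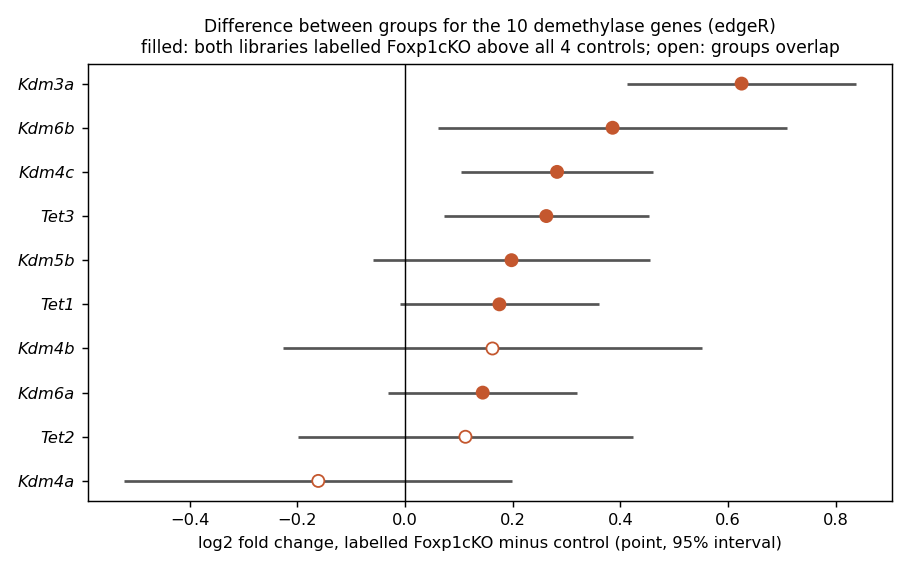
Log2 fold change of each gene (x axis, libraries labelled Foxp1cKO minus controls) with its 95% interval from edgeR, not adjusted for the number of genes. Filled points mark the 7 genes whose groups do not overlap. The intervals of Kdm3a, Kdm6b, Kdm4c and Tet3 lie above 0.

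Kdm3a, which encodes a demethylase of mono- and dimethylated lysine 9 of histone H3, had the largest difference of the 10. The gene (ENSMUSG00000053470.13) lies on the minus strand of chromosome 6 from 71588972 to 71632990 (GRCm38). It was at 252, 248, 235 and 245 CPM in controls 1 to 4, and at 343 and 413 CPM in the libraries labelled Foxp1cKO 1 and 2. The controls were within a few percent of each other, and both libraries labelled Foxp1cKO stood well clear of them, although they differed from each other more than the controls did. The log2 fold change was 0.63 (standard error 0.0899, a 1.54-fold difference), with a 95% interval of 0.41 to 0.84. Its edgeR adjusted p was 0.0758, from the unadjusted p-value ranked 47 among 17068, and DESeq2 gave an adjusted p of 2.3e-06, the lowest of the alternatives, which reached up to 0.451, so the call depended on the tool. When single libraries were left out, the log2 fold change ran from 0.47 to 0.75.

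The bases before a start of Kdm3a are shown because this gene stood furthest apart. Those before a start of Kdm4c and the start of Kdm6a are shown for their matches to the core of the hypoxia response element. With each strand counted, they had the most matches to this core, the short sequence that HIF binds. Each window shown is the 250 bases upstream of a RefSeq start (GRCm38.p6), written 5′ to 3′ on the gene's own strand, with ACGTG and GCGTG on either strand in capitals. Kdm3a is at chr6:71632918-71633167 on the minus strand, Kdm4c at chr4:74251629-74251878 on the plus strand, and Kdm6a at chrX:18162325-18162574 on the plus strand.
Kdm3a: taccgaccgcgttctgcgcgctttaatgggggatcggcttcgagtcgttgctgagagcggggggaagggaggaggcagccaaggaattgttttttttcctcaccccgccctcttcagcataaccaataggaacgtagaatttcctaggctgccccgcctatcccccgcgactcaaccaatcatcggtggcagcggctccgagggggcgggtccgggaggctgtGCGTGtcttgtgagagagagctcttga
Kdm4c: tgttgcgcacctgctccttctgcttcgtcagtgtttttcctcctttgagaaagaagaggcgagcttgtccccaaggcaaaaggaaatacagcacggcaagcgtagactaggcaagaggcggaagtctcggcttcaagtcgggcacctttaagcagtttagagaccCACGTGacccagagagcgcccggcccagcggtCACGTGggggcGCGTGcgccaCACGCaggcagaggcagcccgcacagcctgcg
Kdm6a: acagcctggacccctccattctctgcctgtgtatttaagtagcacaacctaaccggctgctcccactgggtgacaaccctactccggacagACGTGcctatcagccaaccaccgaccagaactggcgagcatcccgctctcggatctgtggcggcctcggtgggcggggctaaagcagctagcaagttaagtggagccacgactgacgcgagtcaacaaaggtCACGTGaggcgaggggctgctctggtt

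The Kdm3a window held 1 copy, GCGTG beginning 27 bases before the start, and was shown for it, since the windows of the other Kdm3a starts and of the other Kdm4c start held neither motif. In the Kdm4c window there were 6 matches, 4 of them from 2 copies of CACGTG, in which ACGTG reads on both strands. The Kdm6a window had 3 matches, 2 of them from 1 such CACGTG. Of the 10 genes, 8 had windows in the table, 11 windows in all, and 5 of these genes had a match in at least 1 window. The others with a match were Kdm5b, with 2, and Tet2, with 1, and the windows of Kdm4a, Tet1 and Tet3 held neither motif. Counted by window, 5 of these 11 (45.5%) held either motif, against 38.6% of all 32851 windows of this length (16.6% for ACGTG and 28.2% for GCGTG), and a match is given as a description only. Kdm4b and Kdm6b had no entry in the table.

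Set against its paralogs Kdm3b and Jmjd1c, Kdm3a also took a larger share. Levels were set on a scale per length (TPM, counts divided by the length of a gene's joined exons and scaled to the same total in each library), and the TPM of Kdm3a was taken as a percentage of the summed TPM of Kdm3a, Kdm3b and Jmjd1c. Other demethylases of lysine 9, such as Kdm7a, are not in this sum. That share was 57.3, 56.2, 55.2 and 56.4% in controls 1 to 4, and 62.2 and 66.9% in the libraries labelled Foxp1cKO. The groups did not overlap, and the shares of both Kdm3b and Jmjd1c were correspondingly lower. Their own levels were not lower: Kdm3b was at 157 to 168 CPM in the controls and at 189 and 171 CPM in the libraries labelled Foxp1cKO, and Jmjd1c at 201 to 214 CPM and at 213 and 226 CPM. Over these 3 genes, the controls had a summed TPM of 226 ± 3.56 (SD, n = 4), against 308 ± 17.8 (SD, n = 2) for the libraries labelled Foxp1cKO. With the longest transcript as the length, the mean share of Kdm3a was 50.5% among controls, against 59.0%.

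**Figure D3:**
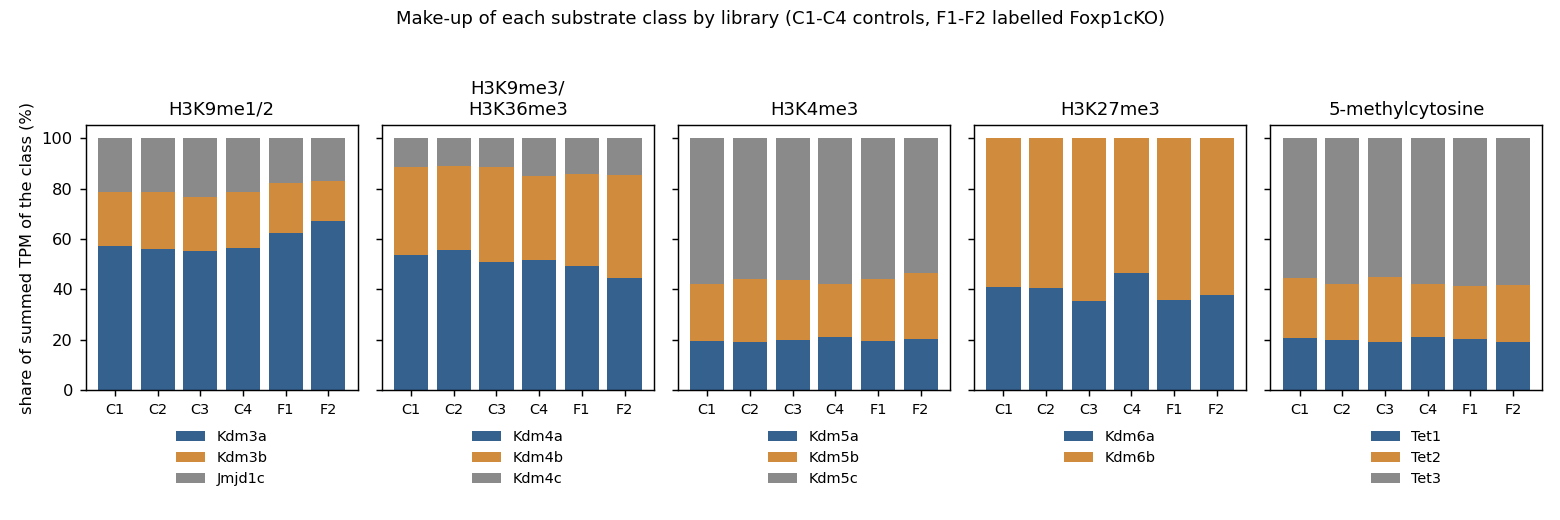
Share of each gene in the summed TPM of the listed genes of its class (y axis, percent), for controls (C1 to C4) and libraries labelled Foxp1cKO (F1 and F2), by the mark that the enzymes remove. The Kdm3a segment takes 55.2 to 57.3% in the controls and 62.2 and 66.9% in F1 and F2, while the Kdm6a and Kdm6b segments overlap between the groups.

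The Kdm4 genes, whose products demethylate trimethylated lysines 9 and 36 of histone H3, gave differences of both signs. Kdm4c (ENSMUSG00000028397.13, chromosome 4, 74242497 to 74405860) was at 49.8, 52.8, 55.7 and 52.6 CPM in controls 1 to 4 and at 64.9 and 63.3 CPM in the libraries labelled Foxp1cKO. Both of these libraries lay above every control, with little spread in either group. Its log2 fold change was 0.28 (standard error 0.0753, edgeR adjusted p = 0.260). Kdm4b (ENSMUSG00000024201.12, chromosome 17, 56326062 to 56402870) was at 125, 134, 156 and 99.5 CPM in the controls and at 139 and 149 CPM in the libraries labelled Foxp1cKO. Those 2 values sit inside the range of the controls, of which control 3 was the highest and control 4 the lowest. The log2 fold change of Kdm4b was 0.16 (standard error 0.165, edgeR adjusted p = 0.706), no larger than its error. It was 0.057 without control 4, 0.094 without the library labelled Foxp1cKO 2 and 0.25 without control 3. Kdm4a (ENSMUSG00000033326.15, chromosome 4, 118136957 to 118180043) was the only gene of the 10 with a negative value, at 229, 262, 248 and 181 CPM in the controls and 221 and 191 CPM in the libraries labelled Foxp1cKO. Here too the groups overlapped, with control 4 below both libraries labelled Foxp1cKO, and the log2 fold change of -0.16 (standard error 0.153, edgeR adjusted p = 0.683) was close to its error. For Kdm4a it was -0.081 without the library labelled Foxp1cKO 2, -0.093 without control 2, -0.26 without control 4 and -0.27 without the library labelled Foxp1cKO 1. Kdm4a made up 50.8 to 55.4% of the summed TPM of the 3 Kdm4 genes in the controls and 49.1 and 44.5% in the libraries labelled Foxp1cKO, below every control, whereas the shares of Kdm4b and Kdm4c overlapped.

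Kdm5b, also called Jarid1b, encodes a demethylase of trimethylated lysine 4 of histone H3, a mark of active promoters. The gene (ENSMUSG00000042207.17, chromosome 1, 134560171 to 134635285) was at 225, 263, 248 and 204 CPM in controls 1 to 4 and at 268 and 271 CPM in the libraries labelled Foxp1cKO. Both lay above all controls, but only just above control 2. The log2 fold change was 0.20 (standard error 0.109, 95% interval -0.060 to 0.46, edgeR adjusted p = 0.480). Among Kdm5a, Kdm5b and Kdm5c, it took 23.2 ± 1.72% of the summed TPM in controls (SD, n = 4), against 25.4 ± 0.854% (SD, n = 2) in the libraries labelled Foxp1cKO, with overlapping groups.

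Kdm6a and Kdm6b remove the repressive trimethyl mark from lysine 27 of histone H3. Kdm6b (ENSMUSG00000018476.7, chromosome 11, 69398508 to 69413675), whose product is also called JMJD3, was at 135, 143, 165 and 116 CPM in the controls and at 192 and 173 CPM in the libraries labelled Foxp1cKO. The controls were widely spread, and control 3 came close to the lower of the libraries labelled Foxp1cKO. With 0.39 (standard error 0.137, edgeR adjusted p = 0.332), Kdm6b had the second largest log2 fold change of the 10. Kdm6a (ENSMUSG00000037369.17, chromosome X, 18162575 to 18279936), a gene that escapes X inactivation, was far steadier, at 112, 118, 109 and 121 CPM in the controls and at 128 and 126 CPM in the libraries labelled Foxp1cKO. Its log2 fold change was 0.14 (standard error 0.0743, edgeR adjusted p = 0.452). Together the pair had a TPM of 145 ± 12.6 (SD, n = 4) in controls, against 180 ± 12.8 (SD, n = 2), without overlap. Kdm6b made up 53.5 to 64.7% of this sum in the controls and 64.3 and 62.4% in the libraries labelled Foxp1cKO, and these ranges overlapped. Not all class sums were apart. Those of the Kdm4 genes (255 to 370 TPM in controls, 343 and 319 TPM in the others) overlapped. So did those of Kdm5a, Kdm5b and Kdm5c (246 to 273 TPM, against 288 and 270 TPM). Those of the TET genes were barely apart (112 to 135.4 TPM, against 151 and 135.9 TPM).

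Of the TET genes, Tet3 was the most abundant and had the largest difference. Tet3 (ENSMUSG00000034832.15, chromosome 6, 83362373 to 83459084) was at 255, 278, 284 and 258 CPM in the controls and at 337 and 308 CPM in the libraries labelled Foxp1cKO. Both exceeded all controls, and the log2 fold change was 0.26 (standard error 0.0809, edgeR adjusted p = 0.289). Tet1 (ENSMUSG00000047146.17, chromosome 10, 62804570 to 62908996) had the tightest controls of all 10 genes on the CPM scale, at 89.1, 88.0, 90.6 and 86.8 CPM, against 107 and 93.3 CPM in the libraries labelled Foxp1cKO. The second of these was only slightly above control 3, and the log2 fold change of 0.18 (standard error 0.0781, edgeR adjusted p = 0.403) was 0.25 without the library labelled Foxp1cKO 2 and 0.075 without the library labelled Foxp1cKO 1. Tet2 (ENSMUSG00000040943.12, chromosome 3, 133463679 to 133545139) was at 111, 108, 136 and 96.4 CPM in the controls and at 122 and 122 CPM in the libraries labelled Foxp1cKO, inside the range of the controls. Its log2 fold change was 0.11 (standard error 0.132, edgeR adjusted p = 0.751), and it was 0.044 without control 4 and 0.20 without control 3. Tet3 made up 55.0 to 57.8% of the summed TPM of the 3 genes in the controls and 58.8 and 58.2% in the libraries labelled Foxp1cKO. These shares did not overlap, though they were less than a percentage point apart at their nearest.

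On the scale per length, the control means ran from Kdm4a (171 ± 27.7 TPM), Kdm3a (127 ± 3.24), Kdm4b (113 ± 22.5) and Kdm6b (86.2 ± 14.1) through Tet3 (69.0 ± 4.43), Kdm5b (60.8 ± 7.14) and Kdm6a (58.7 ± 1.88) to Kdm4c (38.8 ± 2.19), Tet2 (28.7 ± 4.75) and Tet1 (24.5 ± 0.904), each as TPM ± SD with n = 4. The level of Kdm4a exceeded that of 93.9% of all genes, and even Tet1 exceeded 54.5%. The control ranges of each pair of neighbors in this order overlapped, except those of Kdm6a and Kdm4c and of Kdm4c and Tet2. Compared within each library, most pairs of neighbors kept this order in all 6 libraries. The exceptions were Kdm4a over Kdm3a, in 4 libraries, and Kdm3a over Kdm4b and Kdm5b over Kdm6a, in 5 each. In the libraries labelled Foxp1cKO the order began differently, since Kdm3a was at 184 and 215 TPM and Kdm4a at 168 and 142 TPM. These levels depend on the length taken: with the longest transcript, the control mean of Kdm3a was 160 TPM and that of Kdm4a 157 TPM. Of the overlapping genes in the table, A230083N12Rik, antisense to Kdm4c, and Gm42567, antisense to Tet2, held 0.345% and 0.321% of the counts of these 2 genes. Annotated genes that overlap Kdm4a, Kdm6b, Tet1 and Tet3 were not in the table, so reads shared with them could not be assessed.

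The 10 genes also varied among the controls. Control 4 was the lowest control for 6 of them (Kdm4a, Kdm4b, Kdm5b, Kdm6b, Tet1 and Tet2), and control 3 the highest for 6. Set against each control in turn, the mean of the libraries labelled Foxp1cKO was higher by a median over the 10 genes of 0.24, 0.18, 0.14 and 0.33 log2 CPM for controls 1, 2, 3 and 4, with 9, 9, 7 and 10 of the genes higher. No such values over all genes are given here, so these are a description of the 10 only. Differences between whole libraries are not set apart in them. The summed level of 7 neuron markers (Dcx, Neurod6, Tbr1, Bcl11b, Stmn2, Map2 and Snap25) varied among the controls in the same order as Kdm4b and Kdm6b. The other genes of the 10 did not follow this order, and the match was picked out after the values were seen. Of these markers, Neurod6 (532, 521, 428 and 273 CPM in controls 1 to 4) and Tbr1 (349, 490, 382 and 251 CPM) did not follow that order on their own. The sum was 3757, 4549, 4940 and 2733 CPM in controls 1 to 4, and 3594 and 3688 CPM in the libraries labelled Foxp1cKO, inside the range of the controls. Kdm6b, in contrast, was above all controls in the latter. In bulk tissue, fewer cells of a type and less RNA per cell cannot be told apart, and the part of neuron content in these values was not tested.

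**Figure D4:**
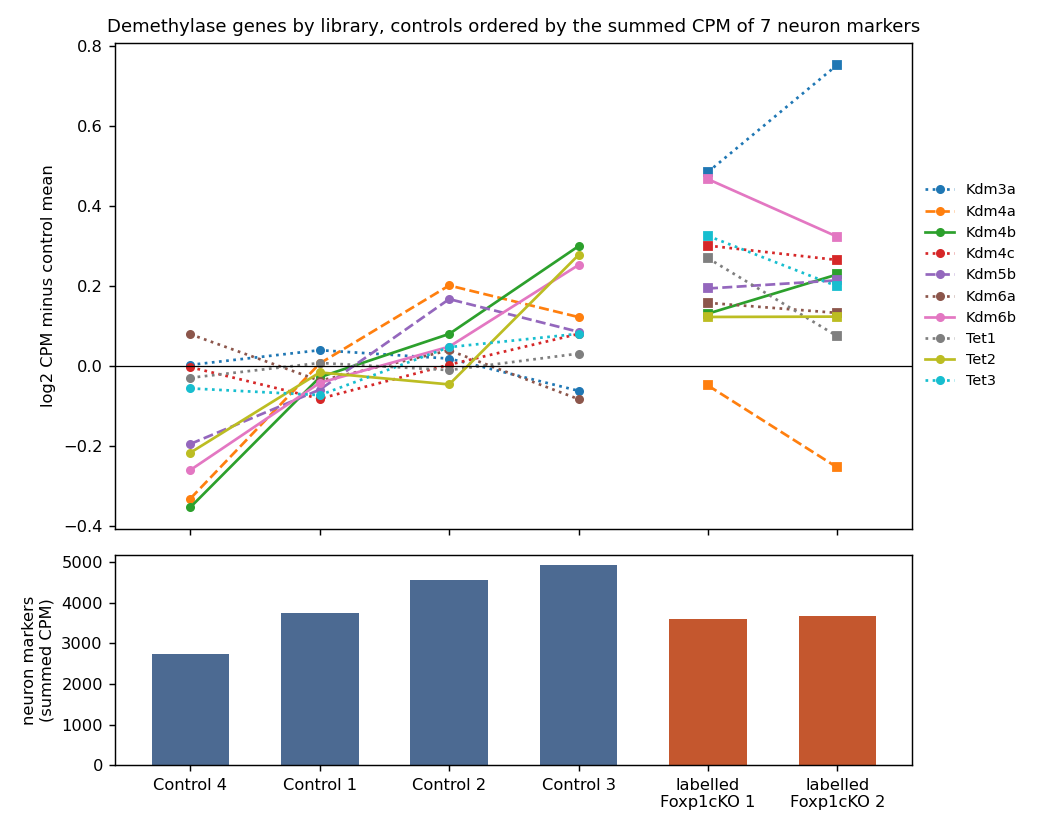
Upper panel, log2 CPM of each gene minus its control mean (y axis) in the 4 controls (circles) and the 2 libraries labelled Foxp1cKO (squares), with lines that only join the values of 1 gene. Lower panel, summed CPM of the neuron markers, by which the controls are ordered. Kdm4b and Kdm6b climb from control 4 to control 3 with the summed markers, while Kdm3a is flat over the controls and stands apart in the libraries labelled Foxp1cKO.

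For mural cells and red cells, the summed markers did not overlap between the groups. The 5 mural cell markers summed to 68.2 to 88.3 CPM in the controls and to 111 and 116 CPM in the libraries labelled Foxp1cKO. The 8 red cell genes summed to 1436, 1090, 1139 and 3429 CPM in controls 1 to 4, and to 3760 and 4021 CPM in the libraries labelled Foxp1cKO. For red cells, control 4 thus lay near the libraries labelled Foxp1cKO and far above the other controls. The 8 endothelial markers, of which edgeR called 1, Flt1, overlapped, at 139 to 214 CPM and 197 and 243 CPM, as did the 7 microglial markers, at 22.1 to 36.5 CPM and 38.01 and 36.03 CPM. The 7 radial glia markers in the table, at 2087 to 2511 CPM in the controls, were inside that range in the libraries labelled Foxp1cKO. The 8 ventral telencephalon and interneuron markers summed to 235, 362, 832 and 262 CPM in controls 1 to 4, and to 527 and 391 CPM in the libraries labelled Foxp1cKO. Both of these libraries thus lay above controls 1, 2 and 4 and below control 3, which also had the highest summed neuron markers. The 5 intermediate progenitor markers (663 to 894 CPM in the controls, 625 and 717 CPM in the others) and the 4 Cajal-Retzius markers (350 to 427 CPM in the controls, 399 and 515 CPM in the others) overlapped. The part of any of these cells in the demethylase values was not tested. Exon length also moved with the groups to a small extent: among the 4262 genes with the longest joined exons (6390 bases or more), which included 7 of the 10, the median log2 fold change was 0.027 and 13.8% of genes had both libraries labelled Foxp1cKO above all controls, against -0.027 and 10.1% for the 4262 genes with the shortest (up to 2330 bases). The part of length in the result was not tested.

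Non-overlapping groups were also found among related enzymes. Of 22 other listed 2-oxoglutarate dioxygenases, 19 were in the table, and in 7 of these 19 both libraries labelled Foxp1cKO lay above all controls (Kdm2a, Kdm3b, Kdm5a, Kdm7a, Phf2, Jmjd6 and Tyw5), against 11.5% of all genes, and in 1, Jmjd4, below them. In edgeR 0 were called, while 4 were under 0.05 before adjustment, 3 higher and 1 lower, against 13.0% of all genes in either direction. Their median log2 fold change was 0.072. Kdm7a, which encodes a demethylase of lysines 9 and 27 of histone H3, was at 106, 100, 107 and 99.8 CPM in the controls and at 152 and 195 CPM in the libraries labelled Foxp1cKO. Its log2 fold change of 0.75 (standard error 0.105, edgeR adjusted p = 0.0747) stood beside the 0.63 of Kdm3a, and the difference between the genes was not tested. Jmjd6, which encodes a lysyl hydroxylase and proposed arginine demethylase, was at 57.0 to 60.7 CPM in the controls and at 71.1 and 96.4 CPM in the libraries labelled Foxp1cKO, with a log2 fold change of 0.52 (standard error 0.120, edgeR adjusted p = 0.242). Jmjd4, a hydroxylase of a translation termination factor, was lower, with a log2 fold change of -0.23 (standard error 0.0736, edgeR adjusted p = 0.295). DESeq2 called Kdm7a and Jmjd6 and no other gene of this list.

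Among 9 genes of the Fto and Alkbh dioxygenases, edgeR called 0, and 2 were under 0.05 before adjustment, against 13.0% of all genes. Alkbh5, which removes the N6-methyl mark from adenosine in RNA, was at 86.0, 93.0, 78.4 and 104 CPM in the controls and at 121 and 147 CPM in the libraries labelled Foxp1cKO. Its log2 fold change was 0.57 (standard error 0.130, edgeR adjusted p = 0.242), and it was the gene of this list that DESeq2 called. The value for Alkbh3, a repair enzyme for alkylated DNA and RNA, was 0.29 (standard error 0.0966, edgeR adjusted p = 0.315). The flavin-dependent demethylases Kdm1a and Kdm1b, which use another chemistry, had log2 fold changes of -0.22 and -0.086, with overlapping groups.

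The enzymes that write the same marks showed no call in either direction with edgeR or DESeq2. For lysine 4 the 6 methyltransferase genes had a median log2 fold change of 0.18, with Kmt2c at 0.26 (standard error 0.103, edgeR adjusted p = 0.368) and Kmt2a at 0.18. The 5 genes for lysine 9 had a median of -0.039. Suv39h1 among them was at 82.4 to 106 CPM in the controls and at 79.2 and 76.4 CPM in the libraries labelled Foxp1cKO, a log2 fold change of -0.30 (standard error 0.110, edgeR adjusted p = 0.343), and Setdb1 was at -0.081. For lysine 27 the 4 genes of the Polycomb methyltransferase had a median of -0.077. Ezh2, its main catalytic subunit, was below all controls in both libraries labelled Foxp1cKO, with a log2 fold change of only -0.13 (standard error 0.0729, edgeR adjusted p = 0.477), and Ezh1 was at 0.17. For lysine 36 the median was -0.017, with Nsd3 at 0.074 and Nsd2 at -0.068. The DNA methyltransferases with Uhrf1 had a median of -0.10, with Dnmt3a at 0.11 and Dnmt3b at -0.16. Of 4 genes that act after 5-methylcytosine oxidation, all had negative values, from -0.31 to -0.073, and Apex1, the abasic site endonuclease of base excision repair, was lowest (standard error 0.120, edgeR adjusted p = 0.361), followed by the glycosylase gene Smug1 at -0.12. In edgeR, unadjusted p-values under 0.05 were limited to Suv39h1, Kmt2c and Apex1 among these writers and downstream genes.

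The supply of the cosubstrate gave no call either, in edgeR or DESeq2. Of 10 genes for making or using 2-oxoglutarate or clearing its competitor 2-hydroxyglutarate, 9 had negative log2 fold changes, with a median of -0.086, and 0 were under 0.05 before adjustment in edgeR. Idh3g, a subunit of mitochondrial isocitrate dehydrogenase, was at -0.17 (standard error 0.0782, edgeR adjusted p = 0.417), and Adhfe1, at 0.59 (standard error 0.283, edgeR adjusted p = 0.428), was scarce, at 0.889 to 1.96 CPM over the libraries. For scale, 14 HIF-1 reference genes had a median log2 fold change of 1.34, and edgeR called 5 of them (Vegfa, Pdk1, Bnip3, Adm and P4ha1, at 1.40 to 2.53), and DESeq2 called 11. The 0.63 of Kdm3a lay within the range of the 14, below 10 of them. It was above Egln1 (0.54, with the same edgeR adjusted p of 0.0758). It was also above Car9 (0.25, standard error 0.358), Pfkfb4 (0.00013, standard error 0.181) and Ndrg1 (-0.33, standard error 0.557), whose groups overlapped. Ndrg1 was at 8.32 CPM in control 4 and at 30.5 CPM or more in the other controls. The libraries labelled Foxp1cKO had 14.5 and 28.3 CPM of Ndrg1, so the sign of its value is not settled here. The paper, with litter in its model, lists Ndrg1 as upregulated, and the part of litter in this value was not tested.

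**Figure D5:**
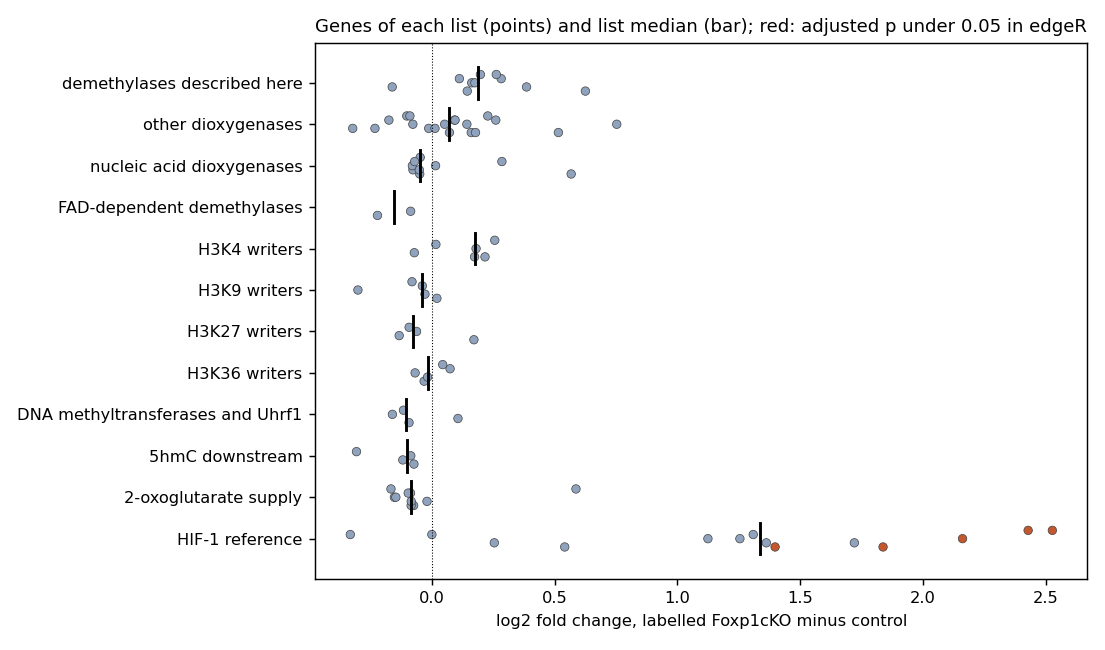
Log2 fold change (x axis, libraries labelled Foxp1cKO minus controls) of each gene, by list (rows), with the list median as a bar and genes past an adjusted p-value of 0.05 in edgeR in red. The 5 red points are all HIF-1 reference genes, and the median of the demethylases described here is 0.19.

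Kdm3a shared its course over the libraries most closely with Tnfsf9, Dusp3 and Ero1l. The measure was the root mean square difference of log2 CPM, each gene centered on its own mean, over 6 libraries, among 13844 genes with at least 1 CPM on average. It was 0.036 for Tnfsf9, a ligand of the TNF family, 0.045 for Dusp3, a phosphatase gene, and 0.049 for Ero1l, which encodes an oxidase of disulfide bond formation in the endoplasmic reticulum and uses oxygen itself. The standard deviation of Kdm3a over the same libraries was 0.33. Kdm6b was closest to Triobp (0.037), Zmynd8 (0.047) and Auts2 (0.050), at a standard deviation of 0.27, and Tet1 to Frs2 (0.020), Atxn2l (0.022) and Cic (0.025), at 0.11. These likenesses are descriptions, over 6 libraries that include both groups.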

How the data were processed

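RNA-Seq of lateral cortex from 4 control embryos and 2 embryos labelled Foxp1cKO was used. The authors prepared stranded libraries, mapped reads to mm10 with STAR, made gene counts with HTSeq 0.9.1 (union) and left out genes with few counts. The deposited count table holds whole, unnormalized counts. The deposited VST values, on a log2-like scale, were made by the authors, whose processing notes list DESeq2 1.30.1, and served only for an alternative. The strand setting of the counting is not given in the sources used here.

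Counts were fitted across all 17068 genes with edgeR 4.0.16 (TMM, quasi-likelihood test, group alone, Benjamini-Hochberg adjustment, threshold 0.05) in R 4.3.3. The labels give no litter, so the litter of the authors' model was not used. A difference between litters could therefore not be told apart from one between the groups, and its part in the values was not tested. Log2 CPM used a prior count of 2. TPM used exon unions of GENCODE M21, on the assembly of mm10 but of another release than the authors', in which 17047 identifiers were found. Sox2, Tubb3, Neurod1, Kdm5d, Uty and Jmjd7 of the lists were not analysed here, and 1 marker of the dorsal telencephalon is not reported here. Promoter windows came from RefSeq (GRCm38.p6), of which the 250 bases before each start were searched. On simulated data of this design with 17068 genes, edgeR called 77 of 100 genes changed by 2 and 49 of 100 changed by 1 on the log2 scale. In pairs of libraries of the same group chi-square per gene ran from 25.9 to 193, so no library was a copy of another.

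Depth was 50076008 to 78346979 counts per library, at which 3 counts are 0.0381 to 0.0596 CPM. These floors and all counting errors cover counting alone. The labels call the libraries separate samples, and p-values measure the spread between them. The members and lists were chosen with earlier results of these data known. Genes named from the other lists were those past the threshold and the 2 (for other dioxygenases, 3) with the smallest unadjusted p-value. The other dioxygenases named for their non-overlapping groups, and Egln1, Car9, Pfkfb4 and Ndrg1, fall outside this rule and were chosen after their values were seen. The genes of likest course were sought for Kdm3a, Kdm6b and Tet1. Alternatives were DESeq2 1.42.0, limma 3.58.1 on the VST values, scaling by total counts or by DESeq2's size factors, 2 filters on low counts, the longest transcript as length, RPKM, the replicate block and each library left out in turn.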

Additional observations from a re-analysis of the deposited data

How the results depend on the processing

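In the 13 alternatives, each of the 10 genes kept the direction of its log2 fold change, and in edgeR and limma none passed the threshold. DESeq2's Wald test called 474 genes, against 26 in edgeR, and 1 of the 10, Kdm3a, at a log2 fold change of 0.63 (adjusted p = 2.3e-06), and the cause of this difference between the tools was not tested. The adjusted p of Kdm3a ran from 2.3e-06 to 0.451 over the alternatives. Replicate numbers 1 and 2 occur in both groups, although the embryos differ. Across genes, deviations from the group mean correlated at -0.20 between both libraries numbered 1 and at 0.016 between those numbered 2. In a group of 2 libraries these deviations mirror each other, so the correlations cannot decide a pairing. As the labels give no litter, the number was not taken as a pairing. With the replicate block, 0 genes passed in edgeR, where 3027 had an unadjusted p-value under 0.05. None of the 10 could thus be called, and Kdm3a was at 0.59 (adjusted p = 0.206). Numbers 3 and 4 occur only among the controls, so the comparison in this fit rests on the libraries numbered 1 and 2. When single libraries were left out, 2 to 96 genes passed in edgeR, with the fewest without control 2 and the most without control 4, and 9 passed without the library labelled Foxp1cKO 1, 6 without control 1 and 3 without the library labelled Foxp1cKO 2. In the fits with 1 library labelled Foxp1cKO, that library is assumed to vary like the controls. The number of the 10 whose groups do not overlap was 7 to 9. It was 9 without control 3, with Kdm4b and Tet2 added above the controls, and 8 without control 4, with Kdm4a added below them, but 37.8% and 39.4% of all genes did not overlap then, and 27.3 to 46.3% over all such omissions. TPM with the longest transcript differed from the main value by more than the SD of the controls for 8 of the 10 genes. None of the 10 had fewer than 3083 counts in a library, far above the floor of 3, and 2 embryos in 1 group limit every comparison.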
